A study of Homo sapiens with 18 samples.

Results

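The comparison described here set 3 arrays of HMLE cells expressing Snail against 3 arrays of HMLE cells with an empty vector, which are 6 of the 18 arrays of the series. The arrays were chosen by their titles, and the comparison was made over all 18417 genes that had a probe set with a single symbol. HMLE is a human mammary epithelial line made immortal by telomerase together with T antigens of a virus, and the labels call the cells normal breast epithelium and spell the line HMLEC in a further field. The vector group had been transfected with a vector control and the Snail group with the Snail construct. The design text says that stable clones were selected, so a group may be a single clone, and neither the species nor the sequence of the construct is stated. Both groups were grown in DMEM/F12 with 10% serum and harvested in log growth. The series also holds HMLE with Twist and the same inserts in MCF10A, a spontaneously immortalised mammary epithelial line. Their values are described only where a difference from Snail in HMLE is tested. They also enter the estimate of spread behind each SE and p-value, and the choice of the probe set for a gene.

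Snail, the product of SNAI1, is a zinc finger repressor that binds E-box sequences in promoters such as that of the cadherin gene CDH1. It drives epithelial-mesenchymal transition (EMT), in which epithelial cells lose junctions and apical-basal polarity and take on a migratory, fibroblast-like state. The transition is best known for its adhesion and matrix genes. The account below is given to the other genes that moved: receptors, guidance cues, channels, secreted regulators, enzymes, regulatory RNAs and transcription factors.

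The values are log2 expression values, so a difference of 1 is a doubling of signal and a negative value a loss. Differences are given ± SE from limma over all 18 arrays, and levels as the mean ± SD of 3 arrays or as the value on each array in replicate order. The words rose and fell are used of genes with an adjusted p under 0.05 and a difference of at least 1 (2-fold). The medians of the 6 arrays lay between 7.74 and 7.793, and replicates correlated across probe sets at 0.995 to 0.997 against 0.968 to 0.97 between the groups. Nothing in the labels ties replicates to cultures of their own, so a p-value here reflects only how much these samples varied, and that variation may be technical. The number of arrays limits the precision.

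SNAI1 followed the labels. It read 7.4, 7.25 and 7.52 on the vector arrays and 12.52, 12.54 and 12.53 on the Snail arrays. The groups did not overlap, and SNAI1 was 5.14 ± 0.09 higher with Snail (adjusted p = 3.8e-17). The other named markers of the comparison moved as well: CDH1 stood at 12.27 ± 0.07 with vector and 6.62 ± 0.15 with Snail, the repressor ZEB1 at 7.54 ± 0.09 and 11.39 ± 0.05, and the basement membrane gene NID1 at 6.72 ± 0.17 and 13.05 ± 0.05. Of 8 measured mammary epithelial markers 7 fell, with per-array mean levels of 11.92 to 11.93 with vector and 8.21 to 8.24 with Snail. Of 12 fibroblast or mesenchymal markers 11 rose, from 8.73 to 8.79 up to 11.47 to 11.50. None of 9 endothelial markers passed, with list means of at most 7.14 with vector and 7.28 with Snail, and neither did the 3 genes of 9p21 used to check the line. Leukocyte markers gave 1 fall of 8 (LCP1), adipocyte markers 1 rise of 6 (FABP4) and neural markers 1 fall of 6 (MBP). In bulk RNA a change in the share of cells of a type and a change in the RNA per cell cannot be told apart, and the part of the fibroblast markers in the results below was not tested.

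Snail changed 1635 of 18417 genes, 8.88% of those tested. The genes divided almost evenly, with 822 that rose (4.46%) and 813 that fell (4.41%). Each count of rises and falls in a gene family below is to be read against these shares of all genes, which are repeated for some families only. By adjusted p alone 47.7% of genes passed, 22.9% higher and 24.8% lower, and the values of the groups did not overlap for 57.4% of genes. At least 4-fold changes were seen in 2.88% of genes, 1.42% upward and 1.46% downward. The median difference over all genes was -0.008. The sizes were symmetric too: 561 genes rose and 544 fell by a log2 difference between 1 and 2, 70 and 71 by 3 to 4, and 13 and 17 by 5 or more.

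Rises lay lower in the starting signal than falls. Genes were divided into 5 equal groups by their mean on the vector arrays. In the dimmest group, between 2.92 and 6.56, 169 genes rose and 19 fell. In the next 3 groups 215, 230 and 152 rose and 66, 204 and 268 fell, and in the brightest, between 10.5 and 14.76, 56 rose and 256 fell. The starting signal and the difference share the vector arrays, a dim gene has little room to fall, and signal also depends on the probes of a gene.

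**Figure D1:**
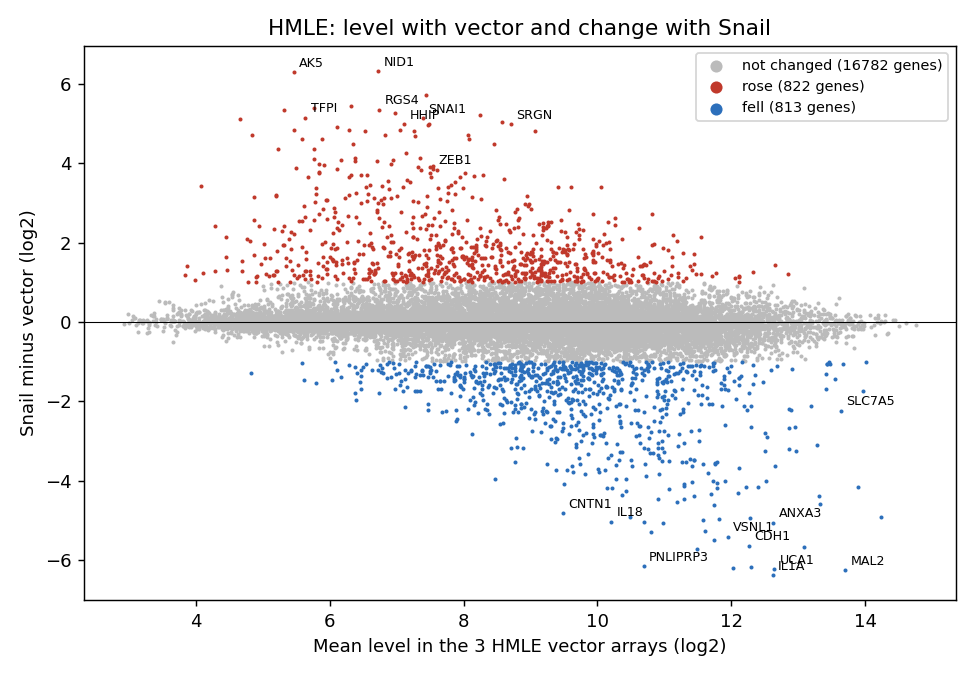
Each point is 1 of 18417 genes, with its mean level in the 3 HMLE vector arrays (log2) on the horizontal axis and the Snail minus vector difference (log2) on the vertical axis. The 822 genes that rose are red and lie mostly at low to middle levels, and the 813 that fell are blue and lie mostly at middle to high levels.

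The rises beyond matrix genes included intracellular regulators, surface enzymes and secreted inhibitors. The adenylate kinase AK5 rose by 6.29 ± 0.21 and the secreted pentraxin PTX3 by 5.73 ± 0.13. RGS4, which switches off signals from G protein-coupled receptors, read 6.93, 6.55 and 6.74 with vector and 12.13, 12.12 and 12.01 with Snail. Its groups lay far apart, and it rose by 5.35 ± 0.14. LRRTM3, a synaptic adhesion protein, read 6.31, 6.23 and 6.43 with vector and 11.7, 11.81 and 11.78 with Snail, a rise of 5.44 ± 0.11. LIN7A, a scaffold protein with a PDZ domain, rose by 5.35 ± 0.1, and all its Snail values were above 10 while all its vector values were below 6. TFPI, the inhibitor of the tissue factor pathway of coagulation, rose by 5.15 ± 0.08 from 5.55, 5.8 and 5.53 to 10.93, 10.63 and 10.77. The aminopeptidase ANPEP (CD13) rose by 5.0 ± 0.05, the granule proteoglycan serglycin, SRGN, by 4.98 ± 0.06, and the pyrophosphatase ENPP1 by 4.8 ± 0.1. TMPRSS15, the protease that activates trypsinogen in the gut, stood at 4.65 ± 0.28 with vector and rose by 5.11 ± 0.15.

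The deepest falls beyond cadherins and keratins included a long noncoding RNA, a lipase-related gene and a calcium sensor. UCA1, a noncoding RNA first known from bladder cancer, read 12.61, 12.68 and 12.63 with vector and 6.43, 6.38 and 6.42 with Snail, a difference of -6.23 ± 0.1. PNLIPRP3, a relative of pancreatic lipase, read 10.64, 10.69 and 10.75 with vector and 4.22, 4.76 and 4.64 with Snail, a difference of -6.15 ± 0.2. Both genes went from a bright signal to a dim one with no overlap between groups. VSNL1, a neuronal calcium sensor, fell by 5.41 ± 0.13. CNTN1, an adhesion protein of axons, fell by 4.82 ± 0.08 from 9.46, 9.49 and 9.48 to 4.74, 4.76 and 4.47. CCNA1, the cyclin A of the germ line, fell by 4.46 ± 0.07, and ANO1, a calcium-activated chloride channel, by 4.46 ± 0.1. FGFBP1, a carrier that releases fibroblast growth factors from matrix, stood at 12.28 with vector and fell by 4.95 ± 0.16. MPZL2, an adhesion protein of epithelia, fell by 5.08 ± 0.2, and ANXA3, a calcium-dependent phospholipid-binding annexin, by 5.06 ± 0.09.

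**Figure D2:**
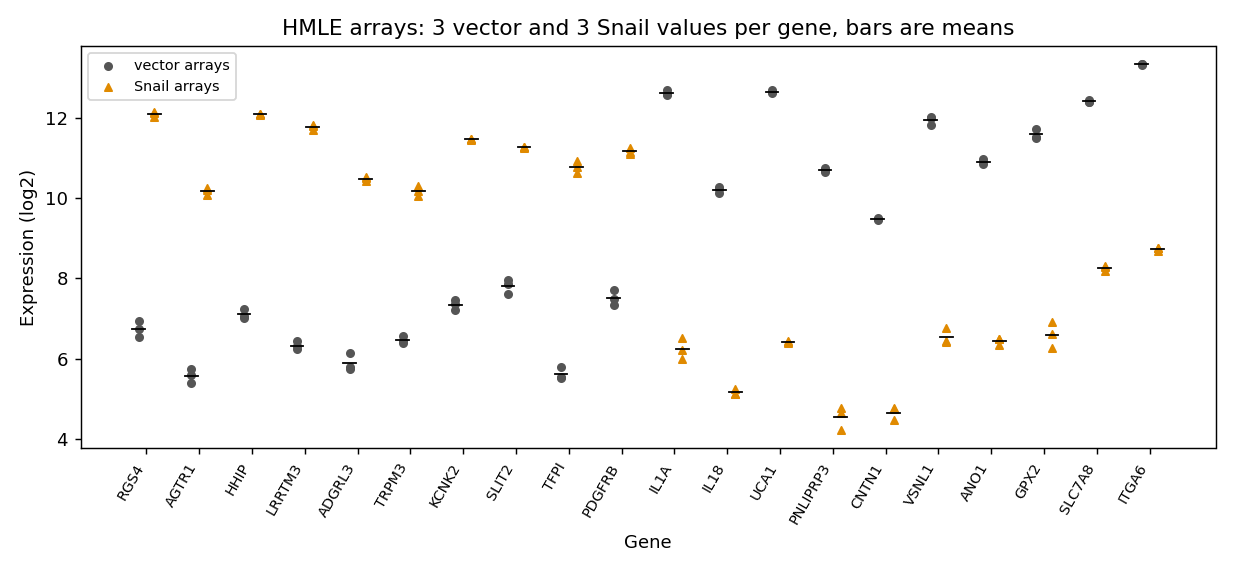
The log2 expression of 20 genes is shown on each of the 3 HMLE vector arrays (grey circles) and 3 Snail arrays (orange triangles), with a bar at each group mean. For RGS4 to PDGFRB all Snail values lie above all vector values, for IL1A to ITGA6 all lie below, and the spread within a group is small beside the gap.

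Transcription factors of mesenchymal tissue rose beside ZEB1. ZEB2, its paralogue, rose by 3.7 ± 0.07, and PRRX1, a homeobox factor of limb and craniofacial mesenchyme, by 4.83 ± 0.12. TBX18, a T-box factor of smooth muscle and pericyte lineages, rose by 4.69 ± 0.12, from a mean of 7.27 ± 0.06 on the vector arrays to 11.95 ± 0.04. Its groups were tight and far apart. Of 17 EMT transcription factors, SNAI1 included, 6 rose and 2 fell. The falls were OVOL1 (-1.43 ± 0.12) and OVOL2 (-1.06 ± 0.12), and OVOL2 was at -0.99 without the second Snail array. Of 36 nuclear receptors 4 rose and 1 fell (11.1% and 2.78%, beside 4.46% and 4.41% of all genes). NR2F1, an orphan receptor of neural crest and mesenchyme, rose by 2.76 ± 0.08. PPARG, the fat cell regulator, rose by 2.56 ± 0.06, and VDR, the vitamin D receptor, fell by 2.4 ± 0.07. CYP27B1, the enzyme that makes active vitamin D, fell by 1.77 ± 0.1. CREB3L1, a membrane-bound factor that drives secretory and collagen genes, rose by 3.37 ± 0.12, and it was the only one of 21 unfolded protein response genes to change at least 2-fold. CITED2, a co-regulator induced by cytokines and hypoxia, rose by 2.71 ± 0.05. On the falling side SOX15 fell by 3.53 ± 0.1 and was the only one of 19 SOX genes that changed. ESRP2, a splicing regulator of epithelial isoforms, fell by 3.2 ± 0.11. All 27 HOX genes measured stayed within 2-fold, with 4 higher and 1 lower by adjusted p alone, and the brightest of them, HOXB2, differed by 0.13 ± 0.06.

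Zinc finger genes with a ZNF symbol rose more often than they fell, 30 against 11 of 494 (6.07% and 2.23%, beside 4.46% and 4.41% of all genes), and 180 against 71 by adjusted p alone (36.4% and 14.4%, beside 22.9% and 24.8%). Their median difference was 0.09. ZNF43 read 5.88, 5.97 and 5.66 with vector and 9.69, 9.39 and 9.63 with Snail, a rise of 3.74 ± 0.13. Many of these genes are close copies in clusters on chromosome 19, so signal may be shared between copies and single members are uncertain.

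RNA of receptor tyrosine kinases and their ligands moved in both directions. Of 31 genes for PDGF, VEGF, HGF and related ligands and receptors 10 rose and 3 fell, with a median of 0.47. PDGFRB, the platelet-derived growth factor receptor of pericytes and fibroblasts, read 7.49, 7.34 and 7.71 with vector and 11.09, 11.24 and 11.15 with Snail, a rise of 3.64 ± 0.09. The collagen receptor DDR2 rose by 3.9 ± 0.07, the WNT5A receptor ROR1 by 2.48 ± 0.05, the angiopoietin ANGPT1 by 3.07 ± 0.11, the ligand HGF by 2.27 ± 0.12 and the ligand KITLG by 1.91 ± 0.12. MST1R, the epithelial relative of the HGF receptor, fell by 2.85 ± 0.14. The bright receptors AXL, MET and EGFR stayed within 2-fold, at 0.73 ± 0.05, -0.44 ± 0.05 and -0.55 ± 0.06. The fibroblast growth factor receptors divided by type. FGFR1, the form of mesenchyme, rose by 2.37 ± 0.06, while FGFR2 fell by 2.32 ± 0.1 and FGFR3 fell by 1.58 ± 0.09. Genes of the EGF family did not rise: 5 of 14 fell and none passed upward, with the ligands TGFA at -3.49 ± 0.18, NRG1 at -1.46 ± 0.09 and HBEGF at -1.13 ± 0.1, and the receptor ERBB3 at -1.33. Among feedback inhibitors of these kinases, SPRY1 rose by 2.31 ± 0.09 and SPRY2 by 1.69 ± 0.08, the ERK phosphatase DUSP6 fell by 1.27 ± 0.08, and the stress phosphatase DUSP1 rose by 2.02 ± 0.05.

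Genes of the insulin-like growth factor (IGF) system moved in a single direction, 7 of 21 up and none down, with a median of 0.51. IGFBP2, a binding protein that holds IGF in the medium, read 10.17, 10.0 and 9.99 with vector and 13.51, 13.44 and 13.44 with Snail, a rise of 3.41 ± 0.11. IGFBP4 rose by 2.2 ± 0.07 together with PAPPA, the protease that cleaves IGFBP4, which rose by 3.42 ± 0.08. STC1, a stanniocalcin that inhibits PAPPA, rose by 2.43 ± 0.08. The binding protein, its protease and an inhibitor of that protease were thus all higher on every Snail array than on any vector array.

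In the hedgehog pathway the inhibitor HHIP stood out. It binds hedgehog ligands at the cell surface and is itself a target of the pathway. HHIP read 7.23, 7.02 and 7.07 with vector and 12.07, 12.09 and 12.1 with Snail, a rise of 4.98 ± 0.11. The receptor PTCH1, another target, rose by 1.21 ± 0.06, and no other of the 15 hedgehog genes measured changed.

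WNT ligands and receptors moved in both directions. Of 29 ligands and Frizzled receptors 5 rose and 4 fell. WNT5A, a ligand of the beta-catenin-independent branch, rose by 2.04 ± 0.1, and WNT7A, a ligand of epithelia, fell by 3.36 ± 0.11. The receptor FZD3 fell by 3.57 ± 0.12 from 9.15, 9.42 and 9.15 to 5.51, 5.8 and 5.69. The ligands WNT5B and WNT2B rose by 1.34 ± 0.12 and 1.09 ± 0.1. The receptors FZD7 and FZD2 rose by 1.18 ± 0.07 and 1.13 ± 0.05, and FZD5 fell by 1.22 ± 0.06. Among modulators the secreted inhibitor SFRP1 fell by 2.5 ± 0.08, the receptor-clearing ligase RNF43 fell by 2.28 ± 0.1 and the co-receptor LRP5 fell by 1.29 ± 0.09, and the inhibitor DKK1 rose by 1.27 ± 0.06.

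The BMP genes did not move as a block. The ligand BMP4 fell by 2.75 ± 0.16, and the antagonists GREM1 and CHRDL1 each rose, by 2.45 ± 0.12 and 2.45 ± 0.1. Of the inhibitors of differentiation, which are BMP targets, ID1 fell by 1.42 ± 0.07 and ID3 by 1.48 ± 0.11, whereas ID2 rose by 2.78 ± 0.14 from 6.62, 6.77 and 6.74 to 9.53, 9.43 and 9.51. The values of the groups did not overlap for any of these 3 ID genes. In the TGF-beta group 5 of 30 rose and 3 fell. The co-receptor TGFBR3 rose by 3.83 ± 0.09 and the latent binding protein LTBP1 by 3.69 ± 0.05, while the activin subunit INHBA fell by 2.81 ± 0.07 and the activin antagonist FST fell by 4.01 ± 0.12. Among Notch genes 5 of 29 fell and 2 rose (17.2% and 6.9%, beside 4.41% and 4.46% of all genes). The ligand JAG2 fell by 1.72 ± 0.11 and the target HES1 fell by 1.74 ± 0.11, and the receptor NOTCH3 of mural cells rose by 1.27 ± 0.06. Of 24 genes of the YAP and TEAD pathway 4 rose and 2 fell. The target ANKRD1 rose by 3.37 ± 0.12 and the target CCN2 by 2.14 ± 0.05, the TEAD partner VGLL1 fell by 3.43 ± 0.13 and the upstream scaffold WWC1 fell by 2.36 ± 0.08.

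Receptors for peptide hormones and lipid mediators were among the clearest gains. AGTR1, the angiotensin II type 1 receptor, read 5.59, 5.4 and 5.74 with vector and 10.08, 10.25 and 10.2 with Snail, a rise of 4.6 ± 0.13. OXTR, the oxytocin receptor of myoepithelial and smooth muscle cells, read 8.53, 8.46 and 8.45 with vector and 11.24, 11.32 and 11.34 with Snail, a rise of 2.82 ± 0.08. The receptors were higher on every Snail array than on any vector array. The thrombin receptor family member F2RL2 rose by 2.84 ± 0.12 and the calcitonin-like receptor CALCRL by 2.02 ± 0.16. Against these, the purine receptor P2RY2 fell by 2.92 ± 0.1, the bradykinin receptor BDKRB1 by 1.82 ± 0.14 and the peptide endothelin, EDN1, by 1.65 ± 0.12, so that of 42 genes in the group 7 rose and 6 fell. RGS proteins, which shorten signals from such receptors, gave 5 rises and no fall in 23: after RGS4 came RGS5 (3.08 ± 0.13), RGS9 (1.87), RGS2 (1.34) and RGS7 (1.16). The phosphodiesterase PDE7B, which degrades cyclic AMP, rose by 3.12 ± 0.08.

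Of 25 prostaglandin and leukotriene genes 4 rose and 2 fell. PTGS2, the inducible cyclooxygenase, read 10.71, 10.6 and 10.43 with vector and 7.75, 7.73 and 7.61 with Snail, a difference of -2.88 ± 0.1. PLA2G4A, the phospholipase that frees arachidonic acid for it, fell by 3.17 ± 0.13, and HPGD, which inactivates prostaglandins, rose by 1.52 ± 0.12. The receptors PTGFR (3.52 ± 0.1), PTGER4 (2.61 ± 0.07) and PTGER2 (1.59 ± 0.12) rose. PTGER4 read 8.89, 8.83 and 8.75 with vector and 11.46, 11.45 and 11.41 with Snail, again with no overlap. Of 20 lysophosphatidate and sphingosine phosphate genes 5 rose and 3 fell. ENPP2, the enzyme that makes lysophosphatidate outside cells, rose by 5.26 ± 0.09. The receptors LPAR1 and LPAR4 rose by 1.09 and 1.41 and LPAR3 fell by 2.86 ± 0.1. The lipid phosphatase PLPP3, which removes the ligand, rose by 2.32 ± 0.07 and SGPP2, a sphingosine phosphate phosphatase, fell by 2.93 ± 0.13.

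The interleukin 1 family showed loss of ligands and gain of receptors. IL18 read 10.12, 10.22 and 10.27 with vector and 5.13, 5.24 and 5.11 with Snail, a difference of -5.04 ± 0.1. IL1B fell by 3.71 ± 0.12 and the receptor antagonist IL1RN by 2.2 ± 0.15, and IL1A fell by 6.38 ± 0.1. NLRP3, the sensor of the inflammasome that matures IL1B and IL18, fell by 2.27 ± 0.08. The receptor IL1R1 rose by 1.57 ± 0.09 and IL1RL1, the receptor of interleukin 33, by 1.84 ± 0.15. Over all 84 interleukins and receptors 10 fell and 4 rose (11.9% and 4.76%, beside 4.41% and 4.46% of all genes). Of 55 chemokines and receptors 5 fell and 1 rose: the chemokine CXCL16 fell by 2.73 ± 0.11, and the decoy receptor ACKR1 rose by 4.83 ± 0.1 from 6.96, 6.98 and 7.22 to 11.86, 11.81 and 11.98. TLR4, the sensor of bacterial lipopolysaccharide, rose by 2.93 ± 0.1. The death ligand TNFSF10 fell by 3.79 ± 0.12.

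Interferon-stimulated genes did not share a direction. Of 39 measured, 4 rose and 5 fell, with a median of 0.03. IFI44L rose by 3.55 ± 0.09, IFITM1 by 1.61 ± 0.09 and IFITM2 by 1.55, whereas HERC6 fell by 2.16 ± 0.1 and the double-stranded RNA sensors OAS3 and IFIH1 by 1.84 ± 0.08 and 1.69. Complement genes rose in 6 of 24 cases with none falling. The classical pathway proteases C1R and C1S rose by 1.93 ± 0.09 and 1.68 ± 0.08 and their inhibitor SERPING1 by 1.9 ± 0.1, each with separate groups. C7, a component of the membrane attack complex, rose by 2.42 ± 0.09 from 4.95, 4.79 and 5.08 to 7.41, 7.24 and 7.42.

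Axon guidance families differed in direction. All 5 changed genes among 20 netrins, Slits and Robos were higher: the ligand SLIT2 by 3.46 ± 0.09, its receptor ROBO2 by 2.4 ± 0.1, SLIT3 by 1.91 ± 0.11, NTN4 by 1.52 ± 0.06 and the netrin receptor DCC by 1.21. SLIT2 read 7.87, 7.97 and 7.6 with vector and 11.28, 11.25 and 11.28 with Snail, without overlap. Semaphorins, plexins and neuropilins were mixed, 4 of 30 up and 7 down, and of 21 ephrins and Eph receptors 2 rose and 4 fell. SEMA5A rose by 3.61 ± 0.09 and SEMA3D by 3.18 ± 0.19, and of their co-receptors NRP1 rose by 1.4 ± 0.06 while NRP2 fell by 2.62 ± 0.08. EPHB6 and EPHA4, which respond to ephrins on neighbouring cells, rose by 2.78 ± 0.11 and 2.06 ± 0.07, and EPHA1, the Eph receptor of epidermis, fell by 2.87 ± 0.11.

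Of 44 neuronal adhesion and synaptic genes 12 rose and 4 fell. CADM3, an adhesion molecule of neurons, read 7.78, 8.18 and 8.24 with vector and 12.78, 12.7 and 12.83 with Snail, a rise of 4.7 ± 0.09. NEGR1, an adhesion protein of growing neurites, rose by 3.02 ± 0.1, the vesicle protein SYT11 by 3.2 ± 0.09, the kainate receptor subunit GRIK2 by 2.49 ± 0.09 and the microtubule protein MAP1B by 2.27 ± 0.06. ADGRL3, a latrophilin that binds teneurins across synapses, read 6.14, 5.73 and 5.78 with vector and 10.52, 10.43 and 10.49 with Snail, a rise of 4.6 ± 0.12. The defining neural markers did not rise with them: of 6 measured, none rose and MBP fell, with list means of 7.55 to 7.66 with vector and 7.46 to 7.55 with Snail. Protocadherins, adhesion proteins that diversify neuronal surfaces, rose in 9 of 42 cases and fell in none. PCDH18 rose by 4.48 ± 0.1 and PCDH9 by 3.98 ± 0.1, and the other 7 belong to the PCDHB cluster, of which PCDHB14 rose by 2.03 ± 0.07. Genes of that cluster are near copies, so its single members are uncertain.

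Ion channels changed one by one. KCNK2, a potassium leak channel opened by membrane stretch, read 7.21, 7.36 and 7.45 with vector and 11.45, 11.47 and 11.47 with Snail, a rise of 4.12 ± 0.08. TRPM3, a calcium channel opened by heat and neurosteroids, rose by 3.71 ± 0.12 from 6.57, 6.44 and 6.4 to 10.31, 10.06 and 10.18. KCNMA1, the large-conductance calcium-activated potassium channel, rose by 2.17 ± 0.07, the irritant sensor TRPA1 by 2.54 ± 0.15 and the sodium channel SCN9A by 2.15 ± 0.12. Over 85 potassium channel genes 6 rose and 4 fell, and over 81 sodium, calcium and chloride channel genes 7 rose and 4 fell, shares of 7.06% and 8.64% for the rises. The falls included ANO1, named above, and the potassium channel KCNJ15 (-2.19 ± 0.11), with KCNK1 at -1.9 and KCNK5 at -1.66.

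Of 22 plasminogen and coagulation genes 5 rose and 1 fell. The plasminogen activators crossed: PLAT, the tissue type, read 10.33, 10.32 and 10.14 with vector and 12.87 on each Snail array, a rise of 2.61 ± 0.06, and PLAU, the urokinase type, read 12.34, 12.25 and 12.28 with vector and 9.67, 9.67 and 9.6 with Snail, a difference of -2.64 ± 0.05. The gelatinases crossed as well, with MMP2 at 2.98 ± 0.06 and MMP9 at -2.91 ± 0.13. In both pairs every Snail value lay outside the range of the vector values. Protein S, PROS1, an anticoagulant cofactor of TFPI, rose by 1.75 ± 0.1. Serpins fell in 7 of 33 cases and rose in 2: the squamous inhibitor SERPINB13 fell by 5.3 ± 0.13 and antitrypsin, SERPINA1, by 3.57 ± 0.08, and the antiangiogenic SERPINF1 rose by 3.76 ± 0.13. Kallikreins, proteases of epithelial surfaces, fell in 4 of 15 cases with none rising, led by KLK5 (-3.45 ± 0.11). The ADAM and ADAMTS family gave 7 rises and 1 fall in 46, with ADAMTSL1 at 4.92 ± 0.15 and the aggrecanase ADAMTS5 at 2.84 ± 0.12.

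Genes of exocytosis and apical sorting fell in 12 of 25 cases and rose in 1. The motor MYO5B, which recycles apical vesicles, read 10.33, 10.29 and 9.99 with vector and 6.88, 6.81 and 6.84 with Snail, a difference of -3.35 ± 0.15. AP1M2, the epithelial subunit of the clathrin adaptor AP-1, fell by 3.28 ± 0.13, and EXPH5, a partner of RAB27, by 3.83 ± 0.11. Of 60 RAB proteins, which steer vesicles, 2 rose and 3 fell, shares of 3.33% and 5% that lie near those of all genes, and RAB38 of the melanosome pathway fell by 4.3 ± 0.09. Tetraspanins fell in 7 of 22 cases and rose in none, with TSPAN1 at -4.05 ± 0.08 and TSPAN7 at -3.96 ± 0.13. Of 22 S100 calcium-binding proteins 4 fell and none rose, with S100A14 at -4.4 ± 0.11 and S100A2 at -4.34 ± 0.12.

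Solute carriers fell more often than they rose, 32 against 13 of 388 (8.25% and 3.35%, beside 4.41% and 4.46% of all genes). By adjusted p alone the family lay nearer to all genes, with 26.8% lower and 20.1% higher and a median of -0.02. The amino acid exchangers SLC7A5 and SLC7A8 carry large neutral amino acids. SLC7A8 read 12.4, 12.38 and 12.43 with vector and 8.3, 8.28 and 8.17 with Snail, a difference of -4.15 ± 0.06, and SLC7A5 fell by 2.24 ± 0.05. The urate and hexose carrier SLC2A9 fell by 3.63 ± 0.08, the GABA carrier SLC6A11 fell by 3.06 ± 0.12 and the glutamate carrier SLC1A3 fell by 2.47 ± 0.1. The arginine carrier SLC7A2 and the amino acid carrier SLC38A4 rose by 2.14 ± 0.08 and 2.42 ± 0.08. Among ABC transporters ABCA8 and ABCA6 of a shared gene cluster rose by 4.71 ± 0.13 and 4.36 ± 0.11, ABCA12, the lipid carrier of the skin barrier, fell by 3.33 ± 0.07 and the drug efflux pump ABCG2 fell by 2.26 ± 0.11.

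Enzymes of oxidant defence fell in part. GPX2, the glutathione peroxidase of epithelia, read 11.5, 11.72 and 11.53 with vector and 6.26, 6.62 and 6.9 with Snail, a difference of -4.99 ± 0.12. The aldo-keto reductases AKR1C2 and AKR1C1 fell by 3.25 ± 0.12 and 2.11 ± 0.05; they are near copies and their signals may be shared. Of 23 NRF2 targets, which include these genes, 6 fell and 1 rose, and the riser was the haem oxygenase HMOX1 (1.62 ± 0.1). Lipid handling changed at single genes: FABP3, the fatty acid carrier of muscle, rose by 3.86 ± 0.1, and ELOVL7, a fatty acid elongase, fell by 2.83 ± 0.12. The kinases that restrain pyruvate oxidation crossed, with PDK2 at 1.87 ± 0.09 and PDK3 at -2.34 ± 0.08. CYP1B1, an oestrogen-hydroxylating cytochrome, rose by 2.57 ± 0.1, and CYP4F11 fell by 3.57 ± 0.08.

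Contractile genes rose in 8 of 29 cases with none falling, and their median was 0.41. The smooth muscle actins ACTG2 and ACTA2 rose by 2.49 ± 0.13 and 2.09 ± 0.06, transgelin, TAGLN, by 2.19 ± 0.11 and the myosin light chain MYL9 by 1.83 ± 0.07. ACTA2 read 10.36, 10.26 and 10.46 with vector and 12.52, 12.45 and 12.37 with Snail, so its groups did not overlap. ARHGEF6, an activator of RAC and CDC42, rose by 3.65 ± 0.15.

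Most mitosis and replication genes were lower by less than 2-fold. The counts by adjusted p alone stand beside 24.8% of all genes lower and 22.9% higher. Of 37 mitosis genes, between -1.15 and -0.05, 36 were lower by adjusted p alone and none higher, and 2 fell at least 2-fold, with a median of -0.54. BUB1B, a spindle checkpoint kinase, read 11.59, 11.62 and 11.6 with vector and 10.45, 10.56 and 10.46 with Snail, a difference of -1.11 ± 0.07. HMMR, a spindle protein, fell by 1.15 ± 0.08, and CDC20, which starts anaphase, differed by -0.87 ± 0.05. Of 32 replication genes 26 were lower and none higher by adjusted p alone, and ORC1 of the origin complex alone fell at least 2-fold (-1.12 ± 0.08). Of 23 cyclins, their kinases and inhibitors 6 were higher and 10 lower by adjusted p alone (26.1% and 43.5%), with a median of -0.06. The kinase CDK6 fell by 1.34 ± 0.09. Histone genes were also lower in most cases, with 52 of 73 lower and 4 higher by adjusted p alone, 15 that fell at least 2-fold, and a median of -0.56. H3C12 read 10.0, 10.1 and 9.98 with vector and 8.1, 8.3 and 8.42 with Snail, a difference of -1.75 ± 0.1. Replication histone genes are near copies of each other, so the single members are uncertain. Among p53 targets more were higher than lower, with 16 of 23 higher and 4 lower by adjusted p alone (69.6% and 17.4%). Of these targets 4 rose at least 2-fold, and the median was 0.53.

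Several large families had no member that changed at least 2-fold. None of 361 olfactory receptors and none of 95 taste receptors and keratin-associated proteins rose or fell, and by adjusted p alone 13 olfactory receptors were higher and 16 lower. None of 81 respiratory chain subunits, 37 proteasome subunits, 22 fatty acid oxidation genes or 13 metallothioneins changed at least 2-fold. By adjusted p alone 24.8% of all genes were lower and 22.9% higher. Beside these shares, 25 respiratory subunits were lower and 13 higher (30.9% and 16%). In the proteasome 19 subunits were lower and 1 higher (51.4% and 2.7%), and 12 fatty acid oxidation genes were higher and 3 lower (54.5% and 13.6%). Of the 13 metallothioneins 6 were lower (46.2%) and none higher by adjusted p alone, with a median of -0.18. MT2A, a metallothionein near the top of the signal range, differed by -0.07 ± 0.04 (adjusted p = 0.173).

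**Figure D3:**
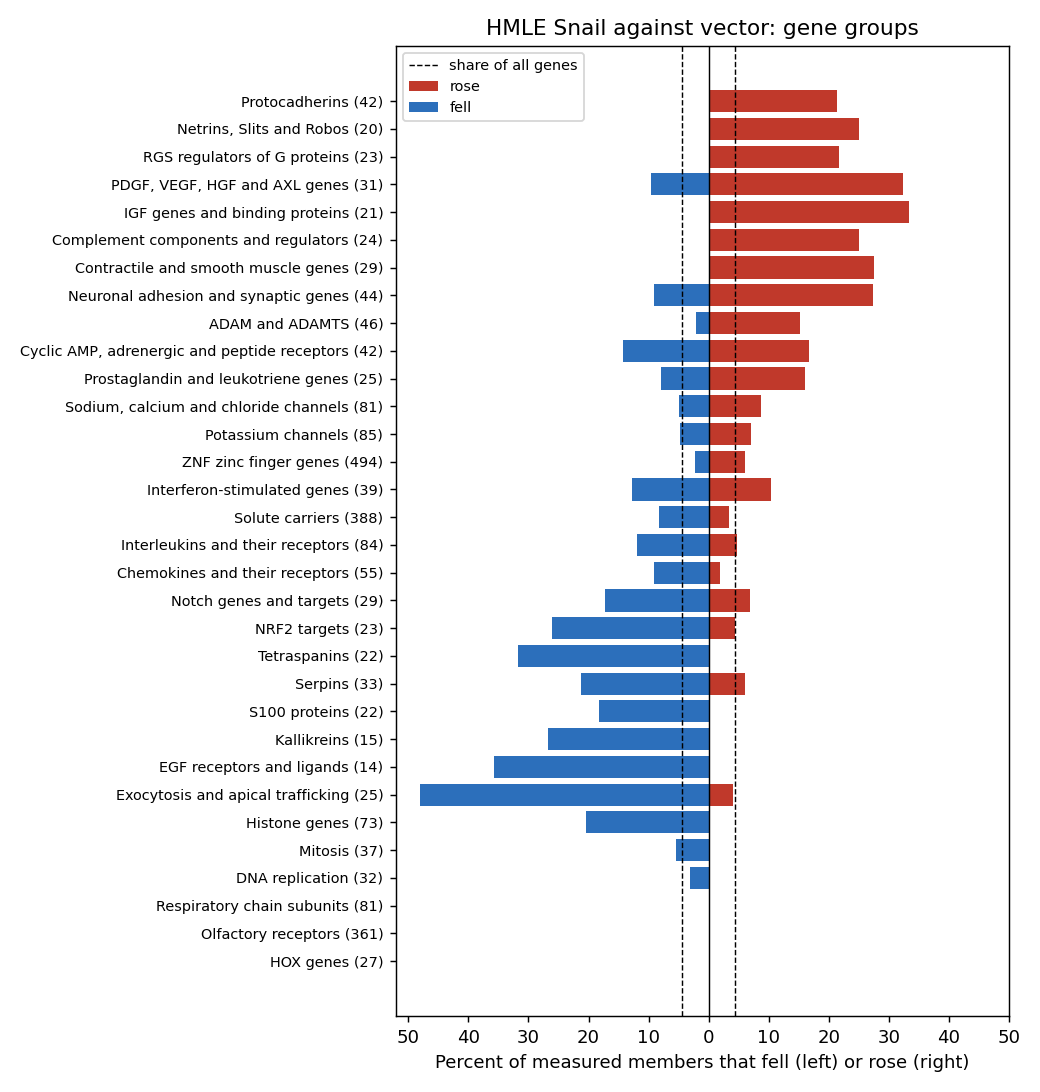
Bars give the percent of measured members (number in brackets) that fell (blue, to the left) or rose (red, to the right) in a selection of the 106 gene groups examined, and dashed lines give the share of all genes, 4.41% and 4.46%. The netrin, Slit and Robo, protocadherin, IGF, complement, contractile and RGS groups have bars to the right alone, and tetraspanin, S100, kallikrein, EGF and histone groups to the left alone.

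Neighbours here are measured genes that follow each other in the reference order, with genes that were not measured passed over. Neighbouring genes rose together at 5 places, where at least 4 measured genes in a row all rose, and no run of 4 measured genes fell. The highest run was on chromosome 1, where DDR2, CCDC190, RGS4 and RGS5 rose by 2.6 to 5.35. A run on chromosome 14 held 6 small nucleolar RNA genes that lie with the imprinted noncoding RNA MEG3, which rose by 3.53 ± 0.1. SNORD114-3 of that run read 6.78, 6.95 and 6.74 with vector and 11.43, 11.57 and 11.63 with Snail, a rise of 4.72 ± 0.14, and SNORD113-4 rose by 4.83 ± 0.17. The weakest member, SNORD114-6, rose by 1.4 ± 0.18. These small RNA genes are near copies, and a probe may report a shared host transcript. A pair of runs on chromosome 19 held zinc finger genes: ZNF506, ZNF253, ZNF93, ZNF682, ZNF90 and ZNF486 rose by 1.12 to 2.19, and ZNF667, ZNF667-AS1, ZNF471 and ZFP28 by 1.09 to 4.06. In the latter the antisense transcript ZNF667-AS1 had the largest rise, 4.06 ± 0.16, against 1.11 ± 0.12 for ZNF667. In 3 pairs of direct neighbours both genes changed at least 16-fold: CADM3 and ACKR1 rose, and the cadherin genes CDH3 and CDH1 (-5.68 and -5.64) and DSC3 and DSC2 (-6.2 and -5.5) fell.

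The last run was on chromosome 11, where BLID, MIRLET7A2, MIR100 and UBASH3B rose by 1.09 to 1.64. BLID was at 0.98, under the 2-fold limit, without the third Snail array. Of 179 probe sets named for microRNA genes, which do not include the let-7 symbols, 7 rose and 1 fell, the risers including the host transcript MIR99AHG. These shares of 3.91% and 0.559% do not exceed the 4.46% and 4.41% of all genes. The array probes lie on the hairpin region and do not separate the mature arms. The mature sequences are shown because the seed, in capitals (bases 2 to 8), sets which transcripts a microRNA pairs with. They come from RefSeq, GRCh38.p14, and were given for MIR154 at chr14:101059769-101059790 and chr14:101059805-101059826 (+), MIR382 at chr14:101054316-101054337 (+), MIR410 at chr14:101065961-101065981 (+), MIR100 at chr11:122152275-122152296 (-), MIRLET7A2 at chr11:122146568-122146589 (-), MIR218-1 at chr4:20528299-20528319 (+) and MIR200C at chr12:6963742-6963764 (+).
hsa-miR-154-5p: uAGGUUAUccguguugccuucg
hsa-miR-154-3p: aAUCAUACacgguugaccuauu
hsa-miR-382-5p: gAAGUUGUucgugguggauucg
hsa-miR-410-3p: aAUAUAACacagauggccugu
hsa-miR-100-5p: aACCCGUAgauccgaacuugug
hsa-let-7a-5p: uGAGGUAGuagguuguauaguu
hsa-miR-218-5p: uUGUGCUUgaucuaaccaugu
hsa-miR-200c-3p: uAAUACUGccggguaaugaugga

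No seed is shared between the microRNAs shown. MIR154, MIR382 and MIR410 lie in the microRNA cluster of the MEG3 region on chromosome 14. MIR154 read 4.6, 4.59 and 4.89 with vector and 6.19, 6.37 and 6.14 with Snail, a rise of 1.54 ± 0.15, and MIR382 and MIR410 each rose by 1.28. MIR100 rose by 1.3 ± 0.16 and MIRLET7A2 by 1.47 ± 0.2 from 7.78, 8.36 and 8.21 to 9.76, 9.28 and 9.73. MIR218-1, which lies within SLIT2, rose by 1.18 ± 0.12 beside its host. Most of these rises began from dim signals, under 5.7, the 10th percentile of gene levels. Vector means were 4.69 for MIR154 and MIR382, 4.28 for MIR410, 4.46 for MIR100 and 5.17 for MIR218-1. MIR410 was still at 5.55 with Snail. The one that fell was MIR200C, whose seed pairs with sites in the transcripts of ZEB1 and ZEB2. It read 7.51, 7.6 and 7.52 with vector and 6.24, 6.39 and 5.85 with Snail, a difference of -1.38 ± 0.14. Its genomic neighbour MIR141 differed by -0.53 ± 0.11 (adjusted p = 0.000602), within 2-fold. The related genes MIR200B, MIR429 and MIR200A, which form a separate cluster, differed by -0.06 ± 0.17, -0.06 ± 0.09 and 0.02 ± 0.12, and their groups overlapped.

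Promoters of the genes that fell held the Snail-type E-box more often than others. The motif is CAGGTG or, on the other strand, CACCTG, and it was searched from 250 bases before to 50 after the first listed start in the RefSeq promoter table, which had a promoter for 14237 of the genes. At least 1 copy was present in 218 of 615 promoters of genes that fell (35.4%), in 84 of 637 of genes that rose (13.2%), in 2490 of 12985 of genes that did not change (19.2%) and in 19.6% of all promoters. At least 2 copies were present in 59 promoters of fallen genes (9.59%) and 4 of risen genes (0.628%), against 3.05% of all. The 4 risen genes were MUC1, KANK2, EPSTI1 and RGS9, named after their values were seen. Median GC content was alike over the whole groups, at 64%, 64.3% and 63% for fallen, risen and all genes. It was lower for genes that fell at least 16-fold (54.3%) or rose at least 16-fold (58.2%). A match is a description of letters near a start and not evidence of binding.

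Other E-boxes did not divide in this way. The palindrome CAGCTG was in 17.9% of fallen, 20.6% of risen and 17.5% of unchanged promoters, and CACGTG in 6.99%, 8.48% and 8.99%. Both of these read the same on either strand, and neither contains the Snail-type E-box. The share with the Snail-type E-box among fallen genes was 33.3% for falls of 1 to 2 on the log2 scale, 30.2% for 2 to 3 and 52.9% for 3 or more, where 45 of 85 promoters held it. Among risen genes it was 13.9%, 9.82% and 14.0%. For changes of at least 16-fold, 14 of 32 promoters of fallen genes held it (43.8%) and 2 of 30 of risen genes (6.67%). The share thus did not climb evenly with the size of the fall. The share among fallen genes also exceeded that of unchanged genes in each of the 5 groups of starting signal. It was 32.8% against 14.2% in the brightest and 40.8% against 24.5% in the second dimmest. Median GC differed within some of these groups. For fallen, unchanged and risen genes it was 44%, 49.3% and 56.7% in the dimmest and 64.3%, 66% and 70.3% in the brightest. The part of base composition was not tested.

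**Figure D4:**
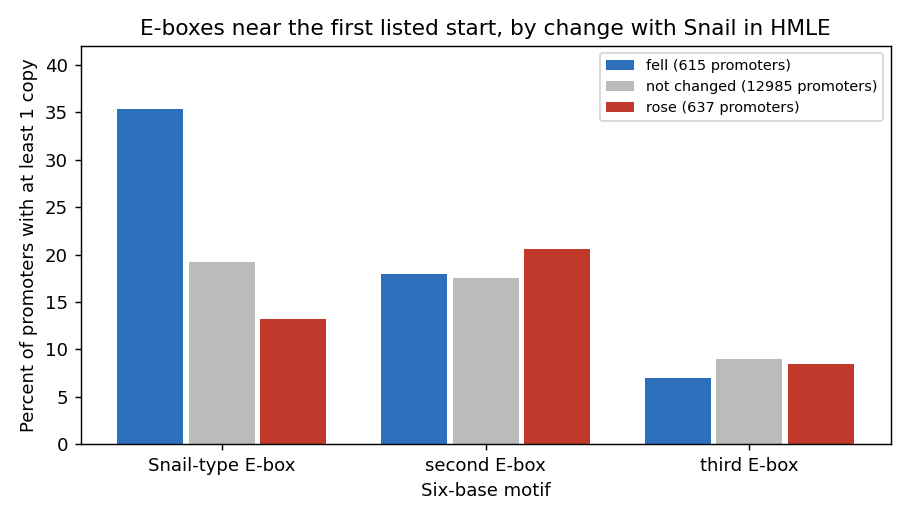
Bars give the percent of promoters with at least 1 copy of each of 3 E-boxes near the first listed start, for genes that fell, did not change or rose. For the Snail-type E-box the bars stand at 35.4%, 19.2% and 13.2%, and for the second E-box at 17.9%, 17.5% and 20.6%.

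A pair of promoters is shown because their genes are among the 30 deepest falls and each holds more than a single copy, in capitals. CDH1 had no entry in the promoter table, so its promoter was not searched. Of the 47 genes that fell at least 16-fold, 32 had an entry. That of ANXA3 lies at chr4:78551520-78551819 (+) and that of ITGA6, the laminin-binding integrin chain, at chr2:172427086-172427385 (+), both in GRCh38.p14 from RefSeq.
ANXA3: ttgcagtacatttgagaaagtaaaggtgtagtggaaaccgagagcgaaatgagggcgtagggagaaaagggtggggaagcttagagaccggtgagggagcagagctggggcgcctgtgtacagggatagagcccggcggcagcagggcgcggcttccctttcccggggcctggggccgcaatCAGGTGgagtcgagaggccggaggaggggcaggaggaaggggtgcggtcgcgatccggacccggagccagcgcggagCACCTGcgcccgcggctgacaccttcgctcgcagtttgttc
ITGA6: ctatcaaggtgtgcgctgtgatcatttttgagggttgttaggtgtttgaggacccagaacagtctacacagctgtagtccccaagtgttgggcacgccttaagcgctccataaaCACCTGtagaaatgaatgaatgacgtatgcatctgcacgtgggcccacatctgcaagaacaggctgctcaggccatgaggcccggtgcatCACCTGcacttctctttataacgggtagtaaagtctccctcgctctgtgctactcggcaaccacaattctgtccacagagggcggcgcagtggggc

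The copies begin at -68 and 9 from the start of ANXA3 and at -136 and -46 from that of ITGA6. ANXA3 read 12.61, 12.65 and 12.63 with vector and 7.45, 7.71 and 7.56 with Snail. ITGA6 read 13.31, 13.33 and 13.33 with vector and 8.76, 8.75 and 8.67 with Snail, a difference of -4.6 ± 0.05. Both genes were thus lower on every Snail array.

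Snail and Twist in HMLE were compared directly, since both differences from vector use the same vector arrays. Of 18417 genes, 332 were higher with Snail than with Twist (1.8%) and 187 lower (1.02%), 519 in all (2.82%), and 0.635% of genes differed at least 4-fold, 0.489% higher and 0.147% lower. Among the 822 genes that rose with Snail, 178 were above their Twist level and 26 below, and among the 813 that fell, 36 were above and 74 below. These genes were chosen on the same Snail arrays, so a lean away from Twist was partly set by that choice. Over all genes the balance by adjusted p alone was the other way, with 14.3% of genes higher and 17.9% lower. SNAI1 stood at 7.52 ± 0.14 with Twist and was 5.01 ± 0.09 higher with Snail. Of the other markers, NID1 was higher with Snail by 0.7 ± 0.11 (adjusted p = 6.24e-05), ZEB1 differed by -0.18 ± 0.06 (adjusted p = 0.03) and CDH1 by 0.01 ± 0.11 (adjusted p = 0.975).

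A set of genes was high with Snail and stayed nearer the vector level with Twist. SULF1, which trims sulfates from heparan sulfate, stood at 6.52 ± 0.13 with vector, 6.75 ± 0.07 with Twist and 11.32 ± 0.11 with Snail, so that Snail exceeded Twist by 4.58 ± 0.09. ADGRL3 stood at 5.88 ± 0.23, 6.62 ± 0.04 and 10.48 ± 0.04 in the same order, and LRRTM3 at 6.32 ± 0.1, 7.65 ± 0.26 and 11.76 ± 0.06. In each of these 3 genes the Snail mean exceeded both other means. C7, ROBO2, SCN9A and SLC38A4 were above Twist by 2.4 ± 0.09, 2.4 ± 0.1, 2.41 ± 0.12 and 2.67 ± 0.08, while their Twist minus vector values were 0.02, 0.0, -0.25 and -0.25. GPM6B, a membrane glycoprotein of neurons, went opposite ways: it stood at 9.58 ± 0.06 with vector, 11.08 ± 0.06 with Snail and 6.76 ± 0.24 with Twist. The synaptic protein NETO1 stood at 7.63 ± 0.18, 9.57 ± 0.01 and 5.52 ± 0.09, and the peptidase TRHDE at 8.42 ± 0.18, 10.27 ± 0.04 and 6.52 ± 0.27.

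Other genes moved less with Snail than with Twist. The fatty acid carrier FABP4 stood at 4.97 ± 0.27 with vector, 6.43 ± 0.26 with Snail and 11.8 ± 0.25 with Twist, a Snail minus Twist difference of -5.37 ± 0.19, and the proteoglycan LUM at 5.21 ± 0.1, 7.0 ± 0.14 and 10.91 ± 0.07. FAM83B, an EGF receptor pathway protein, fell by 2.19 with Snail but stood 3.77 ± 0.13 lower with Twist than with Snail. For ITGA6 the order was reversed, since it stood at 8.73 ± 0.05 with Snail and 11.55 ± 0.08 with Twist. The metastasis suppressor MTSS1 and the actin regulator CAP2 were likewise lower with Snail, with Snail minus Twist differences of -2.3 ± 0.06 and -2.43 ± 0.07. ALDH1A3, a retinoic acid synthesis enzyme and stem cell marker, fell by 2.06 ± 0.13 with Snail, and its Twist minus vector value was 0.34. The spindle gene BUB1B was 1.05 ± 0.07 lower with Snail than with Twist, and its Twist minus vector value was -0.06.

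The Snail change differed between HMLE and MCF10A for 1587 genes (8.62%), 843 with a more positive change in HMLE (4.58%) and 744 with a more negative one (4.04%). The lines use separate vector arrays, and the difference of the changes was tested. By adjusted p alone 40.2% of genes differed, 19.9% in the positive direction and 20.2% in the negative. Of the 1635 genes changed in HMLE 1231 differed between lines: 633 that rose had a more positive change than in MCF10A, and 591 that fell a more negative one. These genes were chosen by their HMLE change, which is itself part of the tested difference. A lean toward the larger change in HMLE was thus partly set by that choice. Just 2 risen genes rose more in MCF10A, MAP2 and ZNF711, with MCF10A changes of 2.65 and 2.57. The 5 fallen genes with a deeper change in MCF10A were AKR1B10, SERPINB4, SLC27A2, SLC6A14 and SPTSSB, with MCF10A changes between -3.15 and -2.26. These 7 genes are named after their values were seen, and AKR1B10 passed the 2-fold limit in HMLE only narrowly, at -1.13 and at -0.98 without the third vector array. SNAI1 itself stood at 12.53 ± 0.01 with Snail in HMLE and 12.49 ± 0.07 in MCF10A, with vector levels of 7.39 ± 0.14 and 8.32 ± 0.14, and its rise differed by 0.98 ± 0.13.

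Some differences between the lines went with the starting level. TFPI was already at 10.39 ± 0.02 in MCF10A vector arrays, against 5.63 ± 0.15 in HMLE, and its change of 5.15 in HMLE compared with 0.19 in MCF10A. UCA1 was at 6.81 ± 0.26 in MCF10A vector arrays against 12.64 ± 0.04, with changes of -0.09 and -6.23. For other genes the lines started alike and parted. MAL2, the apical raft protein, stood at 14.18 ± 0.02 in MCF10A and 13.7 ± 0.07 in HMLE with vector, and fell to 7.43 ± 0.03 in HMLE, while the MCF10A change was -0.15. LIN7A started at 5.47 ± 0.1 and 5.32 ± 0.08, and the MCF10A change was -0.22.

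A few genes moved in opposite directions in the lines. MFAP5, a microfibril protein, had changes of -5.28 in HMLE and 1.92 in MCF10A, a difference of -7.2 ± 0.1. Osteopontin, SPP1, had changes of -3.58 and 1.85, and KCNJ15 of -2.19 and 1.85. ID2 changed by 2.78 and -1.69 and IFITM1 by 1.61 and -1.5, and each of these 5 differences between lines passed the test. Against them stood genes whose changes were close in both lines. ANKRD1 changed by 3.37 and 3.14 (difference 0.23 ± 0.17, adjusted p = 0.332), WNT5A by 2.04 and 2.08 (difference -0.03 ± 0.14, adjusted p = 0.886), IL1RL1 by 1.84 and 1.75 and PTGER2 by 1.59 and 1.55. The death ligand TNFSF10 changed by -3.79 and -3.15, a difference of -0.64 ± 0.18 that did not reach 2-fold.

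**Figure D5:**
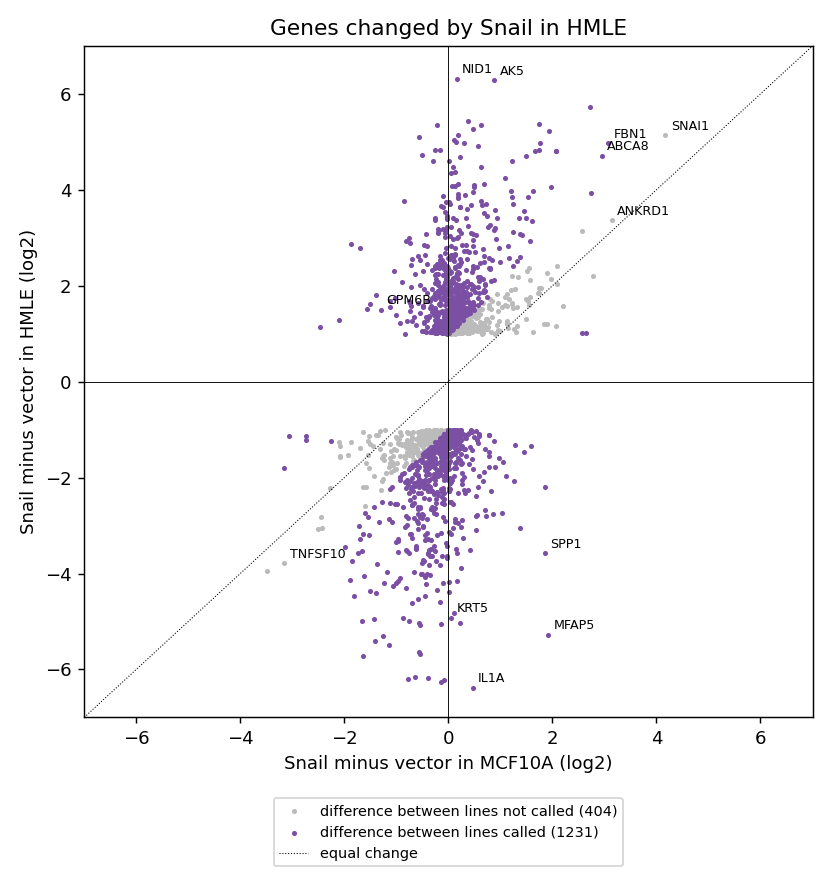
Each point is 1 of the 1635 genes that changed with Snail in HMLE, with its Snail minus vector change in MCF10A (log2) on the horizontal axis and in HMLE on the vertical axis. The 1231 genes in purple differed between lines. Genes were picked by their HMLE change, so a wider spread along the vertical axis was set by that choice. MFAP5 and SPP1 lie at lower right, with a fall in HMLE and a positive change in MCF10A.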

How the data were processed

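Total RNA of 18 samples was hybridised to expression arrays. The deposited table holds log2 values of 33297 probe sets. Per the submitters' processing notes, the authors used RMA. RMA corrects the background, equalises the distributions of the arrays and summarises the probes of a set. The RMA version is not given in the sources used here, nor is a genome build. RMA understates differences of dim genes, and no detection calls were used.

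Groups came from the sample titles. The platform annotation gave 1 symbol for 19460 probe sets, several for 1754 and none for 12083. Of the first, 19429 were found in the RefSeq gene table of GRCh38.p14, and the probe set with the highest mean stood for a gene. The fit was made in limma 3.58.1 (R 4.3.3) with 6 group means over 18417 genes, with Benjamini-Hochberg adjustment. On simulated data for the Snail comparison over 18417 genes, limma called 50 of 50 genes changed by 1.5 and 0 of 50 changed by 0.5. Figures were drawn with matplotlib 3.10.9. Gene families were matched by symbol and lists were written by hand, 106 in all.

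The text names genes from a set made of the markers of the comparison, the 30 largest rises and falls, up to 8 changed and 2 unchanged members of each group, neighbour runs, the 10 largest differences in the other comparisons and the 10 brightest changed genes of either group, with exceptions stated. Not all of that set is printed: matrix, keratin, desmosome and other classical genes were mostly left out. The MIR200 relatives without a change were named after their values were seen. The comparison, groups and lists were chosen with earlier results of these data known.

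Alternatives covered normalization, centring, variance models, array weights, the groups in the fit, averaging over probe sets, removal of dim genes, thresholds, a replicate block and each array left out.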

Additional observations from a re-analysis of the deposited data

Results flagged for a closer look

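The Snail change differed between HMLE and MCF10A by the test of the difference itself for 1587 genes, and 20 named genes with large differences are given as HMLE change minus MCF10A change. The values of genes with the more negative change in HMLE were -7.2 for MFAP5, -6.85 for IL1A, -6.14 for UCA1, -6.11 for MAL2, -5.78 for ITGB6, -5.52 for PNLIPRP3, -5.43 for SPP1, -5.43 for DSC3, -5.26 for IL18 and -5.14 for CDH3. Those with the more positive change were NID1 at 6.17, TMPRSS15 at 5.67, LIN7A at 5.57, AK5 at 5.41, SNORD114-3 at 5.23, SNORD113-4 at 5.08, LRRTM3 at 5.06, PRRX1 at 4.99, TFPI at 4.97 and BGN at 4.92.

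Outside the genes tested above, probe sets with several symbols or none also carried a signal. In a fit over all 33297 probe sets, 289 of 13837 with several symbols or none changed with Snail in HMLE, 141 higher and 148 lower. Of 19460 probe sets with 1 symbol, 852 were higher and 839 lower. None of the 289 is named here. This fit was chosen after seeing the data.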

How the results depend on the processing

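With genes above the median level alone, which leaves fewer genes to call, 494 rose and 442 fell, 163 were above and 103 below Twist, and 471 and 429 had a more positive or more negative change than in MCF10A. With adjusted p alone the counts were 4217 and 4569, 2631 and 3290, and 3671 and 3724 in the same order, and with a 4-fold limit 261 and 269, 90 and 27, and 251 and 211. The share of fallen genes with the Snail-type E-box was 31.3% for genes above the median level and 42.8% over any listed start, where the share of risen genes was 20.6%; the search over any start was chosen after seeing the data. Leaving out 1 array at a time gave 806 to 844 rises and 793 to 827 falls, 328 to 354 and 161 to 217 genes against Twist, and 827 to 865 and 722 to 789 against MCF10A. The E-box shares were then 34.6% to 35.8% for fallen and 13% to 13.7% for risen genes. A fit with the replicate number as a block gave 822 and 813, 332 and 187, and 843 and 744; same-numbered arrays correlated at -0.066, -0.22 and -0.032 for vector and Snail, 0.118, 0.248 and 0.046 for Snail and Twist, and 0.335, 0.103 and 0.069 for vector and Snail in MCF10A, so not every pair passed 0.1 in any comparison and the arrays were taken to share only a number. Of 520 named genes, none reversed under the 16 alternatives of the Snail comparison that measured it (294 remained above the median level), and 25 genes fell short of a call in at least 1 of 10 alternatives, among them C6, CNN1, HLA-DPB1 and MIR186. Without the arrays titled MCF10A Twist 822 genes rose and 813 fell, as in the main fit. The weights fit stopped with a convergence warning. The number of arrays and dim signals limit the precision.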
